A study of Homo sapiens with 9 samples.

Results

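The genes described here are 9 members of the BCL2 family, which sets the threshold for mitochondrial apoptosis, and TNFRSF10B, which encodes death receptor 5. They were chosen by name, as pro- and anti-apoptotic BCL2 family genes together with a death receptor known as a target of the transcription factor CHOP, by a rule that uses no measured value, although it was written with earlier results of these data known. All 10 were found among the 58395 gene identifiers in the files, and all 10 were among the 16761 genes that passed the low-count filter. RNA was measured by single-read RNA-seq in the mesenchymal triple-negative breast cancer line MDA-MB-231, 96 h after reverse transfection in culture medium with serum. The groups were a nontargeting control siRNA (siNC, 3 libraries), a first siRNA against the zinc transporter ZIP7 (siZIP7_1, 3 libraries) and a second one from another supplier (siZIP7_2, 3 libraries). ZIP7, encoded by SLC39A7, releases zinc from the endoplasmic reticulum and Golgi, and the study, which is about ferroptosis, asked how its loss alters gene expression and ER stress. Every group was the same cell line with the same kind of transfection, so an untransfected state was not among these libraries, and each siRNA against ZIP7 is a single reagent. The labels do not say that the 3 libraries of a group came from separate cultures, so p-values measure the spread between these libraries only, which may be technical.

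BCL2 family proteins meet at the mitochondrial outer membrane. The prosurvival proteins BCL-XL (BCL2L1), BCL-W (BCL2L2) and MCL1 hold the pore-forming proteins BAX and BAK (BAK1) in check. BH3-only proteins relay stress signals: BIM (BCL2L11), PUMA (BBC3), NOXA (PMAIP1) and BID bind the prosurvival proteins or activate BAX and BAK, after which cytochrome c leaves the mitochondria and caspases are switched on. Death receptor 5 binds the ligand TRAIL at the cell surface and recruits FADD and caspase-8, and caspase-8 can cleave BID, which joins the receptor route to the mitochondrial one. Under prolonged ER stress the PERK kinase, ATF4 and CHOP (DDIT3) are known to raise death receptor 5 and some BH3-only transcripts. Most of these proteins are regulated after transcription as well, and MCL1 in particular is short-lived, so the transcript levels given here are not protein levels.

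The gene-assigned reads of a library numbered 24153785 to 30454419. Levels are CPM, counts relative to a library size scaled by TMM. Levels of different genes are compared only as CPM per kilobase of exonic length. That length joins all annotated exons of a gene and is not that of the transcripts present, so an order between genes can depend on it. Differences between groups are log2 fold changes with their standard errors (SE), tested with the quasi-likelihood method of edgeR on the 9 libraries together, and adjusted p is the Benjamini-Hochberg value over all 16761 genes. Both siZIP7 groups are set against the same siNC libraries, so their values share that error. SLC39A7, the siRNA target, stood at 321, 343 and 322 CPM in the siNC libraries, at 35.4, 32.9 and 38.6 CPM with siZIP7_1 and at 20.5, 19.5 and 17.6 CPM with siZIP7_2. All 5 genes that mark this line, VIM, CD44, AXL, CAV1 and EGFR, were expressed, with group means of 181 to 5529 CPM. All 5 were lower with siZIP7_1 than with siNC, and with siZIP7_2 VIM, AXL and CAV1 were lower while CD44 and EGFR were higher. Of 5 genes that are low in it, ESR1 and PGR did not exceed a mean of 0.501 CPM in any group, CDH1 had means of 0.466, 4.18 and 0.998 CPM with siNC, siZIP7_1 and siZIP7_2, EPCAM ranged over group means of 4.42 to 9.68 CPM and ERBB2 over 59.3 to 88.0 CPM. The part of these markers in the results was not tested. Of 5 markers of other cells, the blood cell genes PTPRC, CD3E, CD79A and HBB had means of at most 0.875 CPM in every group, and the endothelial gene PECAM1 had means of 3.02, 0.102 and 8.63 CPM, which moves in the order of MCL1, BID, PMAIP1 and TNFRSF10B. Its part in those results was not tested. The share of reads that the counting program assigned to no annotated feature was 7.43 to 8.28% in siNC libraries. It was 7.80 to 9.62% in siZIP7_1 and 9.995 to 11.5% in siZIP7_2 libraries, and its part in the results was not tested.

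With siZIP7_1, 8 of the 10 genes differed from siNC, where 70.7% of all genes tested did. BCL2L1, BAK1, BCL2L11 and BBC3 were higher and MCL1, BID, PMAIP1 and TNFRSF10B lower, that is 4 each way, against 34.8% of all genes higher and 35.9% lower. With siZIP7_2, 9 of the 10 differed from siNC, where 77.8% of all genes did. Of these, 7 were higher, where 38.5% of all genes were, and BCL2L1 and BAX were lower, where 39.3% of all genes were. Between the siZIP7 groups 9 of the 10 differed, against 78.7% of all genes, with 6 higher in siZIP7_2 (38.1% of all genes) and 3 lower (40.6% of all genes). The total called lies near the share of all genes called in each comparison, so that total is not a result about these genes. The split by direction with siZIP7_2 differs more from that of all genes, but it is a count over 10 genes and was not tested. What follows therefore turns on the size of each change and on its direction with each siRNA.

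A stricter test asked whether a change exceeded 1.8-fold, the fold of the filter used in the study. With siZIP7_1 against siNC only BID passed it among the 10, where 16.9% of all genes did. With siZIP7_2 against siNC BAX and BBC3 passed it, where 24.7% of all genes did. Between the siZIP7 groups MCL1, BAX, BID and PMAIP1 passed it, where 28.2% of all genes did. BCL2L1 and TNFRSF10B did not pass it there (edgeR adjusted p = 0.0569 and 0.140). The 10 log2 fold changes had a median of 0.04 with siZIP7_1, 0.46 with siZIP7_2 and 0.35 between the siZIP7 groups, beside medians of -0.0069, -0.0018 and -0.0219 over all genes tested. The median size of the 10 log2 fold changes, without sign, was 0.46, 0.58 and 0.91 in the same order, and that of all genes was 0.48, 0.58 and 0.60.

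**Figure D1:**
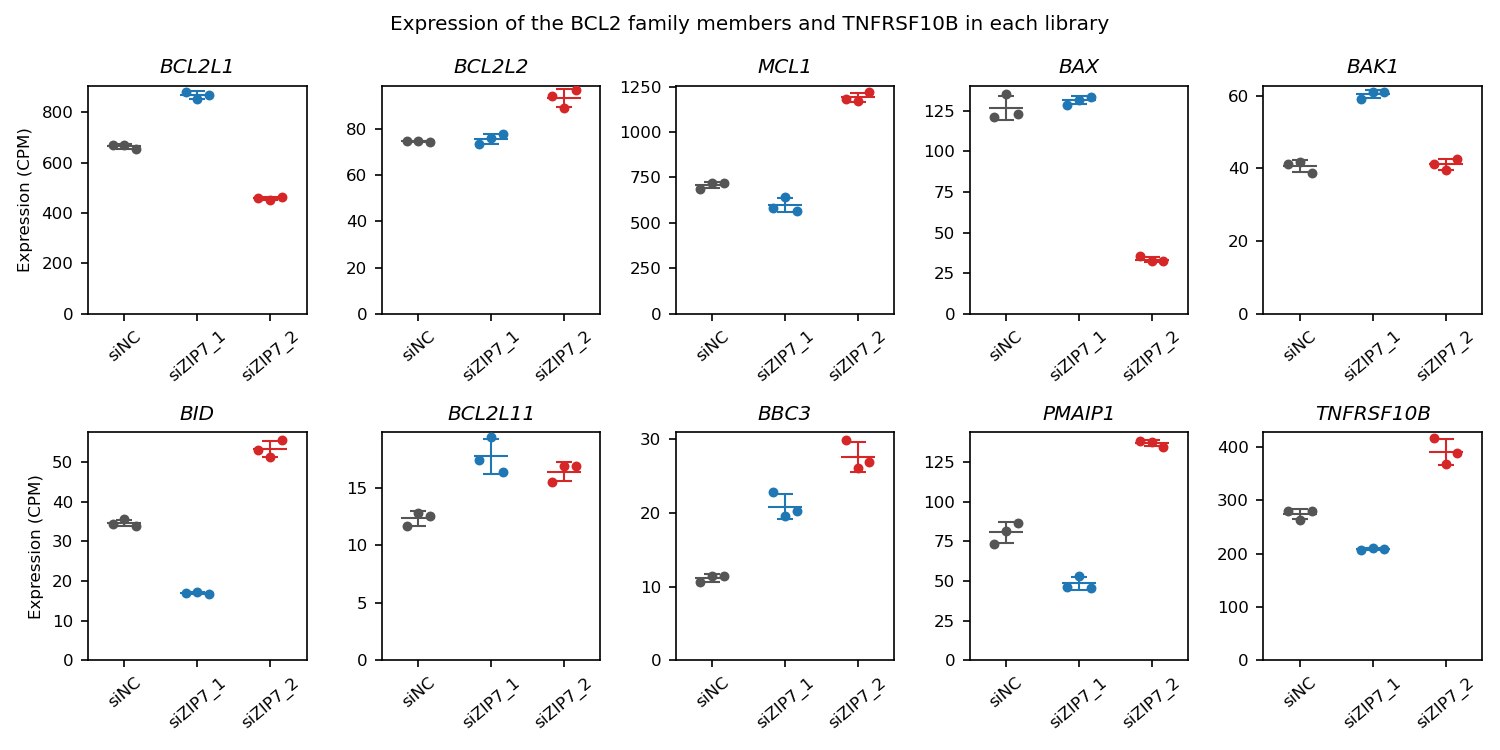
Expression of each gene in every library, in TMM-scaled CPM on a linear axis from 0, with a point per library, a horizontal line at the mean and a bar for the SD of 3 libraries. BCL2L1 is highest with siZIP7_1 and lowest with siZIP7_2, while MCL1, BID, PMAIP1 and TNFRSF10B are lowest with siZIP7_1 and highest with siZIP7_2, and BAX is low in siZIP7_2 alone.

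The prosurvival genes BCL2L1 and MCL1 were the most abundant of the 10 per length, and they moved in opposite directions with each siRNA. BCL2L1 encodes BCL-XL, a long-lived guard of the mitochondrial membrane (ENSG00000171552, chr20:31664452-31723989, minus strand, GRCh38). Its siNC libraries stood at 670, 670 and 654 CPM, those of siZIP7_1 at 882, 852 and 870 CPM and those of siZIP7_2 at 461, 453 and 462 CPM. The 3 groups did not overlap, with the siZIP7_1 libraries above siNC and the siZIP7_2 libraries below it. The share of all genes without overlap was not counted, so lack of overlap, here and below, is a description only. Against siNC the siZIP7_1 log2 fold change was 0.38 (SE 0.044, edgeR adjusted p = 6.95e-09) and the siZIP7_2 value -0.54 (SE 0.044, edgeR adjusted p = 6.58e-12). The siZIP7 groups differed by -0.92 on the log2 scale, siZIP7_2 being at 52.8% of the siZIP7_1 level (SE 0.044, edgeR adjusted p = 2.21e-17). An antisense gene, ABALON, covers 43.0% of the exonic length of BCL2L1 on the other strand. The counts separate strands, because only 9 of 1094 genes wholly covered by other genes on their own strand had any counts, while 393 of 707 genes covered only on the opposite strand did.

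MCL1, the short-lived prosurvival protein that NOXA binds (ENSG00000143384, chr1:150574551-150579738, minus strand), stood at 687, 718 and 719 CPM with siNC and at 582, 641 and 568 CPM with siZIP7_1. With siZIP7_2 it stood at 1180, 1173 and 1220 CPM. Again no group overlapped another, but the order was the reverse of that of BCL2L1, with siZIP7_1 lowest and siZIP7_2 highest. MCL1 changed by -0.25 on the log2 scale with siZIP7_1 (SE 0.049, edgeR adjusted p = 6.37e-05) and by 0.75 with siZIP7_2 (SE 0.049, edgeR adjusted p = 3.85e-14). MCL1 was 2.00-fold higher with siZIP7_2 than with siZIP7_1 (log2 difference 1.00, SE 0.050, edgeR adjusted p = 4.41e-17). BCL2L2, which encodes BCL-W (ENSG00000129473, chr14:23298790-23311759, plus strand), was the least abundant of these prosurvival genes and moved least. Its libraries ranged from 74.5 to 74.6 CPM in siNC, from 73.4 to 77.6 CPM in siZIP7_1 and from 89.0 to 96.8 CPM in siZIP7_2. The siNC and siZIP7_1 ranges overlapped (log2 fold change 0.02, SE 0.049, edgeR adjusted p = 0.704), and siZIP7_2 lay above both, 1.25-fold over siNC (log2 fold change 0.32, SE 0.049, edgeR adjusted p = 7.25e-07). Of its exonic length 19.4% is shared on the same strand with the readthrough gene BCL2L2-PABPN1, so its counts are uncertain to that extent. Counts are per gene, so the long and short splice forms of BCL2L1 and of MCL1, which differ in function, were not separated.

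Per length, BCL2L1 exceeded MCL1 in siNC, at 201 ± 2.73 against 162 ± 4.06 CPM per kilobase (SD, n = 3), and in siZIP7_1, at 262 ± 4.55 against 137 ± 8.80. In siNC that order held only per length, as MCL1 had the higher CPM. In siZIP7_2 the order was turned, at 138 ± 1.52 for BCL2L1 against 272 ± 5.79 CPM per kilobase for MCL1. The ratio of MCL1 to BCL2L1 per length, a measure chosen after the values were seen and free of library scaling, was 0.778, 0.812 and 0.833 in the siNC libraries. It was 0.500, 0.570 and 0.495 with siZIP7_1 and 1.94, 1.96 and 2.00 with siZIP7_2. All 3 siZIP7_1 libraries thus held less MCL1 per BCL2L1 than any siNC library, and all 3 siZIP7_2 libraries more. Of the summed level of BCL2L1, BCL2L2 and MCL1, BCL2L1 made up 52.7 ± 0.794% with siNC, 62.9 ± 1.68% with siZIP7_1 and 32.0 ± 0.338% with siZIP7_2 (SD, n = 3). The share of MCL1 was 42.6 ± 0.817%, 32.8 ± 1.72% and 62.9 ± 0.320%, and that of BCL2L2 was 4.68 ± 0.0420%, 4.34 ± 0.155% and 5.14 ± 0.139%. In proportion the sum itself moved less than BCL2L1 or MCL1. It was 380 ± 3.58 CPM per kilobase with siNC, 416.5 ± 5.29 with siZIP7_1 and 433 ± 7.83 with siZIP7_2. These shares and sums are descriptions and were not tested.

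**Figure D2:**
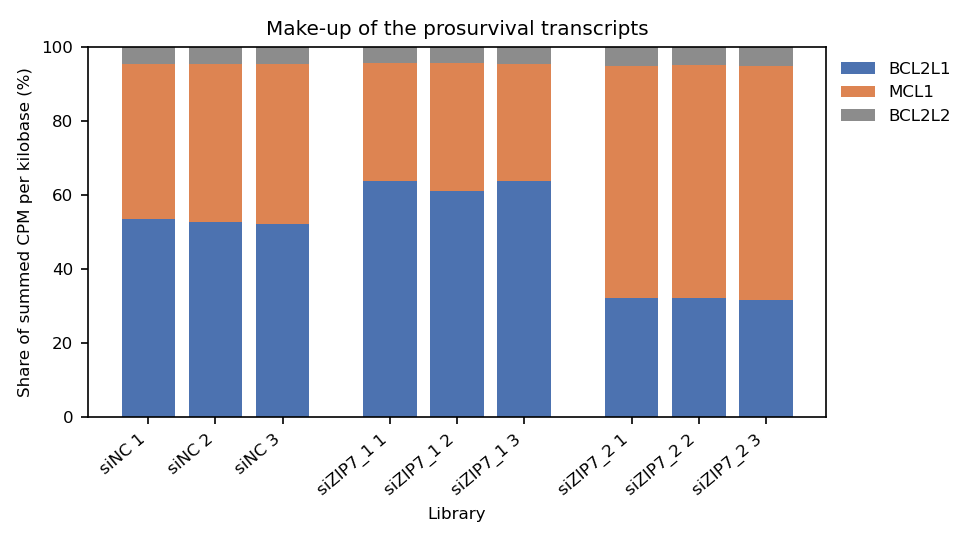
Share of BCL2L1, MCL1 and BCL2L2 in their summed CPM per kilobase of exonic length, in percent, with a stacked bar for each of the 9 libraries. BCL2L1 takes 52.0 to 53.6% in the siNC libraries and 61.0 to 63.9% in siZIP7_1, and MCL1 takes 62.6 to 63.2% in siZIP7_2.

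The pore-forming genes BAX and BAK1 each differed with a different siRNA. BAX, whose protein moves from the cytosol into the mitochondrial membrane (ENSG00000087088, chr19:48954815-48961798, plus strand), stood at 121, 135 and 123 CPM with siNC and at 129, 132 and 134 CPM with siZIP7_1. With siZIP7_2 it stood at 35.4, 32.4 and 32.3 CPM. The siNC and siZIP7_1 libraries overlapped, and every siZIP7_2 library was far below all the others. In bulk RNA, fewer cells that express a gene and less of its RNA per cell cannot be told apart, and this holds for every change given here. BAX had a log2 fold change of 0.06 for siZIP7_1 (SE 0.050, edgeR adjusted p = 0.323) and -1.92 with siZIP7_2 (SE 0.055, edgeR adjusted p = 1.42e-22), where it was at 26.4% of the siNC level. The latter was the largest change of the 10 genes in any comparison with siNC, and larger than that of 91.0% of all genes tested. The siZIP7 groups differed by -1.98 (SE 0.055, edgeR adjusted p = 3.37e-23).

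Because BAX moved furthest, the 250 bases before its RefSeq start are shown here, read 5′ to 3′ from GRCh38.p14 at chr19:48954625-48954874, plus strand. Capitals mark the motifs that were searched on both strands. These were the E-box CACGTG, known as the site of MYC and USF proteins, the CCAAT box CCAAT, the GC box GGGCGG, the AP-1 site TGANTCA, the cyclic AMP response element TGACGTCA and its core TGACG, and the composite site TGATGNAAT, which CHOP partners such as C/EBP and ATF4 are known to bind.
BAX: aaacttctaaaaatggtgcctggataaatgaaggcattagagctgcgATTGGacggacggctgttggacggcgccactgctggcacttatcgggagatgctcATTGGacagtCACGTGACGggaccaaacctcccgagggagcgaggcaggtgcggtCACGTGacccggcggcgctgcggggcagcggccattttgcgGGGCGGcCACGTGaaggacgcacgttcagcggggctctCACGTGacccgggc
This window held 4 E-boxes, whose nearest bases lie 9, 40, 88 and 133 bases before the start, and the farthest overlaps a TGACG core. It also held 2 CCAAT boxes and 1 GC box. Of 35116 RefSeq windows of the same length, 6.34% held an E-box at all and 5 windows (0.0142%) held at least 4. A CCAAT box was in 32.0% of the windows, a GC box in 42.6% and a TGACG core in 21.2%. A match describes the letters only and says nothing of binding in these cells.

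BAK1, whose protein sits in the mitochondrial membrane (ENSG00000030110, chr6:33572547-33580293, minus strand), showed the other pattern. In siNC it stood at 41.3, 41.7 and 38.8 CPM, in siZIP7_1 at 59.1, 61.1 and 61.0 CPM and in siZIP7_2 at 41.2, 39.6 and 42.7 CPM. The siZIP7_1 libraries lay above the rest, and the siNC and siZIP7_2 libraries overlapped. BAK1 was 1.49-fold higher with siZIP7_1 (log2 fold change 0.57, SE 0.053, edgeR adjusted p = 8.26e-11), and its siZIP7_2 value was 0.02 (SE 0.054, edgeR adjusted p = 0.751). That last value took the other sign or passed the test under some settings, from -0.032 without the low-count filter to 0.13 with upper-quartile scaling (edgeR adjusted p = 0.0337). The siZIP7 groups differed by -0.55 (SE 0.053, edgeR adjusted p = 1.12e-10). Per length BAX exceeded BAK1 in siNC, at 48.9 ± 2.88 against 18.4 ± 0.714 CPM per kilobase, and fell below it in siZIP7_2, at 12.9 ± 0.682 against 18.6 ± 0.694 (SD, n = 3). BOK, the third gene of this class, averaged 61.3 CPM in siNC, 72.3 CPM in siZIP7_1 and 20.9 CPM in siZIP7_2. Of BAX, BAK1 and BOK, 2 were thus higher and none lower with siZIP7_1 (all genes, 34.8% and 35.9%). None was higher and 2 were lower with siZIP7_2 (all genes, 38.5% and 39.3%). Both of them were past 1.8-fold (all genes, 24.7% in either direction, and 1791 of 16761 genes lower). The log2 fold change of BOK was 0.24 with siZIP7_1 (SE 0.053, edgeR adjusted p = 1.94e-04) and -1.55 with siZIP7_2 (SE 0.059, edgeR adjusted p = 1.16e-19).

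Among the BH3-only genes, BBC3 and BCL2L11 were higher with both siRNAs. BBC3 encodes PUMA, which binds all the main prosurvival proteins (ENSG00000105327, chr19:47220822-47232766, minus strand). The siNC libraries held 10.6, 11.5 and 11.5 CPM of it, the siZIP7_1 libraries 22.8, 19.5 and 20.3 CPM and the siZIP7_2 libraries 30.0, 26.1 and 26.9 CPM. No group overlapped another, and both siZIP7 groups lay above siNC. BBC3 was 1.87-fold higher with siZIP7_1 (log2 fold change 0.90, SE 0.080, edgeR adjusted p = 4.13e-11) and 2.48-fold higher with siZIP7_2 (log2 fold change 1.31, SE 0.079, edgeR adjusted p = 5.07e-15). The siZIP7_2 libraries exceeded the siZIP7_1 libraries 1.32-fold (log2 difference 0.41, SE 0.072, edgeR adjusted p = 9.44e-06). BCL2L11, which encodes BIM (ENSG00000153094, chr2:111119378-111168447, plus strand), ranged from 11.7 to 12.8 CPM in siNC, from 16.4 to 19.4 CPM in siZIP7_1 and from 15.5 to 16.9 CPM in siZIP7_2. Both siZIP7 groups lay above siNC and overlapped each other. Against siNC its log2 fold change was 0.52 for siZIP7_1 (SE 0.080, edgeR adjusted p = 1.29e-06) and 0.41 with siZIP7_2 (SE 0.081, edgeR adjusted p = 4.05e-05). BCL2L11 was the only one of the 10 whose difference between the siZIP7 groups did not pass the test (-0.11, SE 0.077, edgeR adjusted p = 0.199). It was also the least abundant per length, at 1.86 ± 0.0936, 2.66 ± 0.234 and 2.47 ± 0.124 CPM per kilobase in siNC, siZIP7_1 and siZIP7_2 (SD, n = 3).

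PMAIP1 and BID, in contrast, were lower with siZIP7_1 and higher with siZIP7_2. PMAIP1 encodes NOXA, the BH3-only protein with a preference for MCL1 (ENSG00000141682, chr18:59899948-59904306, plus strand). With siNC the libraries held 73.2, 81.6 and 86.8 CPM, with siZIP7_1 they held 46.3, 53.4 and 45.7 CPM and with siZIP7_2 138, 138 and 135 CPM. The groups did not overlap. PMAIP1 changed by -0.73 on the log2 scale with siZIP7_1, to 60.2% of siNC (SE 0.061, edgeR adjusted p = 9.71e-12), and 0.77 with siZIP7_2, or 1.70-fold (SE 0.058, edgeR adjusted p = 1.03e-12). The siZIP7 groups differed 2.82-fold (log2 difference 1.50, SE 0.060, edgeR adjusted p = 2.58e-19). BID, which caspase-8 cleaves into its active form (ENSG00000015475, chr22:17734138-17774770, minus strand), moved the same way. The values were 34.3, 35.6 and 33.9 CPM in siNC, 17.0, 17.2 and 16.7 CPM in siZIP7_1 and 53.1, 51.3 and 55.5 CPM in siZIP7_2. Here too the groups did not overlap, and siNC lay between the siZIP7 groups. BID fell to 49.0% of siNC with siZIP7_1 (log2 fold change -1.03, SE 0.061, edgeR adjusted p = 4.27e-15), the largest of the 10 changes there, and rose 1.54-fold with siZIP7_2 (log2 fold change 0.62, SE 0.055, edgeR adjusted p = 2.97e-11). Between the siZIP7 groups BID differed 3.14-fold (log2 difference 1.65, SE 0.059, edgeR adjusted p = 1.55e-20). That difference was larger than those of 85.4% of all genes tested, and the 1.50 of PMAIP1 was larger than those of 82.9%.

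The windows of BBC3 and PMAIP1 are shown because these BH3-only genes moved alike with siZIP7_2 and apart with siZIP7_1. The BBC3 window is chr19:47232668-47232917 on the minus strand and the PMAIP1 window chr18:59899746-59899995 on the plus strand, both from RefSeq on GRCh38.p14 and read 5′ to 3′ with the same motifs in capitals.
BBC3: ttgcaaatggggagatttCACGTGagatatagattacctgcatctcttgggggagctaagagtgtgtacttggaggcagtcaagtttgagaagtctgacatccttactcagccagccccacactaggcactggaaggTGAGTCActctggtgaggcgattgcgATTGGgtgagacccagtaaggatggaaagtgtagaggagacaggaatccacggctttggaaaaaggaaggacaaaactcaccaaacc
PMAIP1: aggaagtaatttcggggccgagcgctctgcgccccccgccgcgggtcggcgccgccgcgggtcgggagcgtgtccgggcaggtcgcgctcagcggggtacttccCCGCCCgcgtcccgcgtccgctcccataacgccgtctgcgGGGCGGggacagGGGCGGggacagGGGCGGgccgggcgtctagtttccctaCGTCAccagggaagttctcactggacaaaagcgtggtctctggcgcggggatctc
The BBC3 window held 1 E-box, 1 CCAAT box and 1 AP-1 site, and an AP-1 site was in 6.57% of all 35116 windows. The PMAIP1 window held 4 GC boxes, where 7.63% of all windows held at least 4, and a TGACG core whose nearest base lies 51 bases before the start. RefSeq windows were at hand for 7 of the 10 genes, 12 windows in all, and BCL2L2, MCL1 and TNFRSF10B had none. Neither the full element TGACGTCA, in 1.65% of all windows, nor the composite TGATGNAAT, in 0.888%, was in any of the 12.

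The other BH3-only genes differed in level over a wide range. BMF, released from the cytoskeleton under stress, averaged 8.09 CPM in siNC, 20.2 CPM in siZIP7_1 and 22.0 CPM in siZIP7_2. BAD, a partner of BCL-XL that survival kinases hold inactive, had a mean of 58.8, 24.4 and 48.8 CPM in the same order. BIK, an ER-resident BH3-only protein, had means of 0.279, 0.779 and 3.87 CPM. It was near the detection limit in siNC, at 2 to 12 reads per library, against 99 to 114 reads in siZIP7_2. BMF was higher with both siRNAs, with log2 fold changes of 1.31 with siZIP7_1 (SE 0.090, edgeR adjusted p = 1.14e-13) and 1.43 with siZIP7_2 (SE 0.090, edgeR adjusted p = 1.18e-14). BAD was lower with both, with log2 fold changes of -1.27 (SE 0.054, edgeR adjusted p = 1.82e-18) and -0.27 (SE 0.051, edgeR adjusted p = 2.53e-05). BIK was higher with both, with log2 fold changes of 1.53 (SE 0.384, edgeR adjusted p = 8.15e-04) and 3.83 (SE 0.284, edgeR adjusted p = 5.74e-13). HRK was at or under 0.182 CPM in every library and was not tested. Of the 7 BH3-only genes tested, 4 were higher and 3 lower with siZIP7_1 (all genes, 34.8% and 35.9%), and 6 were higher and 1 lower with siZIP7_2 (all genes, 38.5% and 39.3%). The median of their log2 fold changes was 0.52 for siZIP7_1 and 0.77 for siZIP7_2, beside -0.0069 and -0.0018 over all genes. Summed per length, BID, BCL2L11, BBC3 and PMAIP1 came to 49.2 ± 3.28 CPM per kilobase with siNC, 34.7 ± 1.93 with siZIP7_1 and 84.4 ± 1.03 with siZIP7_2 (SD, n = 3), a sum that PMAIP1 dominated.

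**Figure D3:**
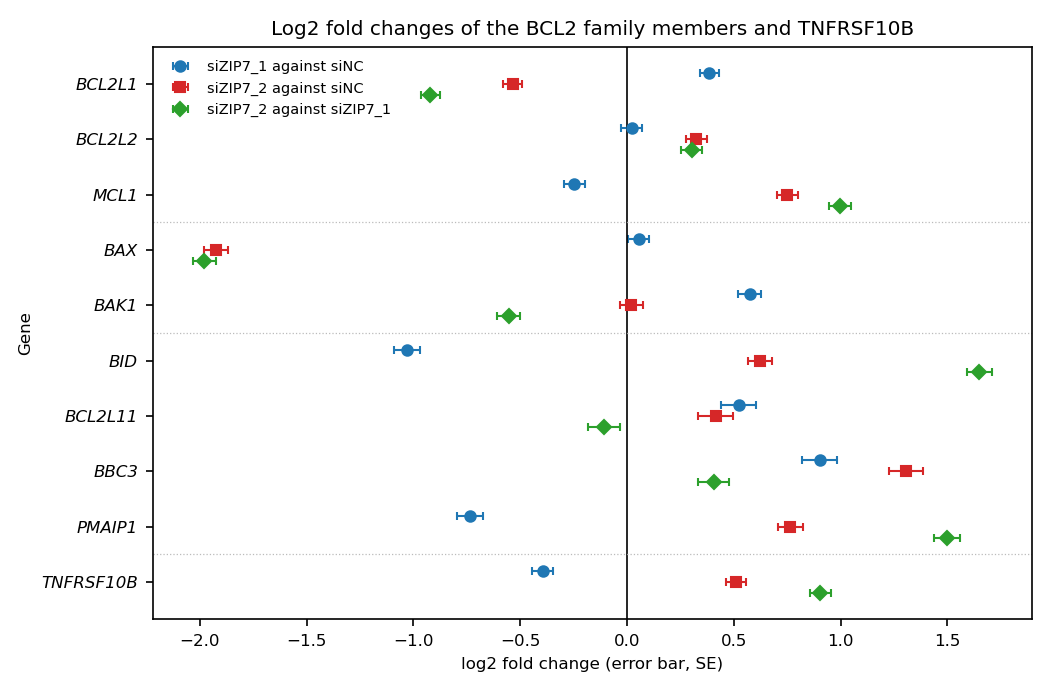
Log2 fold changes of the 10 genes in the 3 comparisons, with error bars for the SE of edgeR's fit. Circles give siZIP7_1 against siNC, squares siZIP7_2 against siNC and diamonds siZIP7_2 against siZIP7_1, and BAX lies furthest left at -1.92 and -1.98 while its siZIP7_1 value is 0.06.

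The remaining prosurvival genes were scarce. BCL2, the founder of the family, averaged 13.8 CPM in siNC, 7.54 CPM in siZIP7_1 and 8.49 CPM in siZIP7_2. It was lower with both siRNAs, by log2 fold changes of -0.87 (SE 0.099, edgeR adjusted p = 5.86e-09) and -0.69 (SE 0.098, edgeR adjusted p = 2.87e-07). BCL2A1, a prosurvival gene known as a target of NF-kappaB, stood at 0.581, 0.559 and 0.498 CPM with siNC and at 10.7, 12.4 and 11.5 CPM with siZIP7_2. With siZIP7_1 its counts were 0, 1 and 0 reads, which puts it at least 5.34-fold lower than siNC against a floor of 3 counts per library. Against the same floor siZIP7_2 was at least 113-fold higher than siZIP7_1, and its log2 fold change over siNC was 4.39 (SE 0.167, edgeR adjusted p = 1.15e-19). BCL2L10 had no reads in any library. Of the 5 prosurvival genes tested, 1 was higher and 3 lower with siZIP7_1 (all genes, 34.8% and 35.9%), and 3 were higher and 2 lower with siZIP7_2 (all genes, 38.5% and 39.3%). Their median log2 fold changes were -0.25 and 0.32.

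TNFRSF10B, the death receptor 5 gene (ENSG00000120889, chr8:23020133-23069179, minus strand), was lower with siZIP7_1 and higher with siZIP7_2. It stood at 280, 263 and 280 CPM with siNC, at 206, 211 and 209 CPM with siZIP7_1 and at 416, 367 and 389 CPM with siZIP7_2. The 3 groups did not overlap, and siNC lay between the others. TNFRSF10B was at 76.1% of siNC with siZIP7_1 (log2 fold change -0.39, SE 0.049, edgeR adjusted p = 3.39e-08) and 1.42-fold over siNC with siZIP7_2 (log2 fold change 0.51, SE 0.049, edgeR adjusted p = 1.33e-10). The siZIP7 groups differed 1.87-fold (log2 difference 0.90, SE 0.049, edgeR adjusted p = 3.31e-16). DDIT3, which encodes CHOP, followed another order. Its level was 26.0, 26.5 and 26.7 CPM in siNC, 42.9, 38.6 and 41.9 CPM in siZIP7_1 and 39.4, 34.9 and 36.2 CPM in siZIP7_2. DDIT3 was thus above siNC in every siZIP7 library, with log2 fold changes of 0.64 (SE 0.061, edgeR adjusted p = 1.90e-10) and 0.48 (SE 0.062, edgeR adjusted p = 5.85e-08), while TNFRSF10B lay on both sides of siNC. The siZIP7 groups differed in DDIT3 by -0.16 (SE 0.059, edgeR adjusted p = 0.0149). Whether CHOP acts on TNFRSF10B in these cells was not tested. Of the exonic length of DDIT3 39.6% is shared with other genes, 8.03% on its own strand.

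The rest of the TRAIL system did not share the order of TNFRSF10B throughout. TNFRSF10A, the other death-inducing TRAIL receptor (DR4), averaged 44.6 CPM in siNC, 54.9 CPM in siZIP7_1 and 26.7 CPM in siZIP7_2. It was higher with siZIP7_1 (log2 fold change 0.30, SE 0.055, edgeR adjusted p = 2.04e-05) and lower with siZIP7_2 (log2 fold change -0.74, SE 0.059, edgeR adjusted p = 2.21e-12). TNFRSF10D, a decoy receptor that binds TRAIL with a truncated death domain, stood at 73.3, 72.6 and 78.4 CPM in siNC, 32.7, 31.6 and 31.7 CPM in siZIP7_1 and 406, 372 and 388 CPM in siZIP7_2. This was the widest spread of the TRAIL receptors, with the siZIP7 groups 12.2-fold apart. The log2 fold change of TNFRSF10D was -1.23 with siZIP7_1 (SE 0.053, edgeR adjusted p = 3.18e-18) and 2.38 with siZIP7_2 (SE 0.050, edgeR adjusted p = 1.33e-25). The decoy TNFRSF10C stayed at 1.20 CPM or less in the mean of each group. It had the order of TNFRSF10B, lower with siZIP7_1 (log2 fold change -1.47, SE 0.333, edgeR adjusted p = 2.79e-04) and higher with siZIP7_2 (log2 fold change 0.65, SE 0.250, edgeR adjusted p = 0.0200). Of its exonic length 39.3% is shared on the same strand with other genes. TNFSF10, the gene of TRAIL itself, had means of 0.983, 0.988 and 1.35 CPM without a difference that passed the test. Osteoprotegerin (TNFRSF11B), a soluble TRAIL-binding protein, had means of 10.4, 6.92 and 4.54 CPM with siNC, siZIP7_1 and siZIP7_2 and was lower with both siRNAs.

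Other death receptors and ligands were measured alongside. FAS had means of 3.53, 5.05 and 4.55 CPM in siNC, siZIP7_1 and siZIP7_2, TNFRSF1A, the main TNF receptor, 134, 148 and 126 CPM, and TNFRSF25 0.226, 0.167 and 0.812 CPM. TNFRSF21, death receptor 6, had means of 281, 195 and 92.7 CPM and was lower with both siRNAs, at -0.53 (SE 0.045, edgeR adjusted p = 1.84e-11) and -1.60 (SE 0.047, edgeR adjusted p = 3.11e-22) on the log2 scale. TNF, the cytokine, stood at 21.8, 17.2 and 17.5 CPM with siZIP7_2 and at no more than 0.146 CPM in any library of the other groups. FASLG did not exceed 0.251 CPM in any library and was not tested. Of the 11 genes of this list that were tested, TNFRSF10B among them, 3 were higher and 5 lower with siZIP7_1 (all genes, 34.8% and 35.9%), and 6 were higher and 3 lower with siZIP7_2 (all genes, 38.5% and 39.3%). The median of their log2 fold changes was -0.42 for siZIP7_1 and 0.46 for siZIP7_2, beside -0.0069 and -0.0018 over all genes. These medians are the values of the scarce genes TNFRSF25 and TNFSF10, which did not pass the test there (edgeR adjusted p = 0.459 and 0.0762). Among genes whose mean reached 1 CPM in each group, TNFRSF10B, TNFRSF10D and FAS were higher with siZIP7_2. TNFRSF10A, TNFRSF11B and TNFRSF21 were lower, and TNFRSF1A did not pass the test. The medians thus do not describe a shared shift.

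Downstream of the receptor, CASP8, the initiator caspase that cleaves BID, averaged 39.1 CPM in siNC, 24.5 CPM in siZIP7_1 and 29.7 CPM in siZIP7_2. It was lower with both siRNAs, at -0.68 (SE 0.059, edgeR adjusted p = 2.12e-11) and -0.40 (SE 0.058, edgeR adjusted p = 4.23e-07). TRADD, an adaptor of the TNF receptor, was higher with both, with means of 15.6, 23.1 and 22.4 CPM. Of the 6 genes of the death-inducing complex, 2 were higher and 1 lower with siZIP7_1 (all genes, 34.8% and 35.9%), and 3 were higher and 2 lower with siZIP7_2 (all genes, 38.5% and 39.3%), with median log2 fold changes of -0.0077 and 0.14. CFLAR, which encodes the caspase-8 inhibitor c-FLIP and is named here after its values were seen, had means of 39.8, 40.5 and 193 CPM. It rose 4.84-fold with siZIP7_2 (log2 fold change 2.28, SE 0.053, edgeR adjusted p = 1.40e-24), while siZIP7_1 gave 0.02 (SE 0.055, edgeR adjusted p = 0.714).

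Some inhibitors of apoptosis act on the caspases that both routes share. BIRC5 (survivin) had means of 155, 87.2 and 138 CPM with siNC, siZIP7_1 and siZIP7_2 and was lower with both siRNAs, and BIRC6 had means of 95.7, 171 and 116 CPM and was higher with both. BIRC3, a ubiquitin ligase at the TNF receptor, is named after its values were seen, and its means were 55.6 CPM in siNC, 25.2 CPM in siZIP7_1 and 356 CPM in siZIP7_2. Its log2 fold changes were -1.14 (SE 0.063, edgeR adjusted p = 9.46e-16) and 2.68 (SE 0.058, edgeR adjusted p = 2.77e-25). BIRC7, named for the same reason, had at most 2 reads in any siNC or siZIP7_1 library and a mean of 2.73 CPM with siZIP7_2, at least 23.8-fold over siNC against a floor of 3 counts per library. Of the 6 genes of this list, 1 was higher and 2 lower with siZIP7_1 (all genes, 34.8% and 35.9%), and 5 were higher and 1 lower with siZIP7_2 (all genes, 38.5% and 39.3%), with median log2 fold changes of 0.07 and 0.78.

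**Figure D4:**
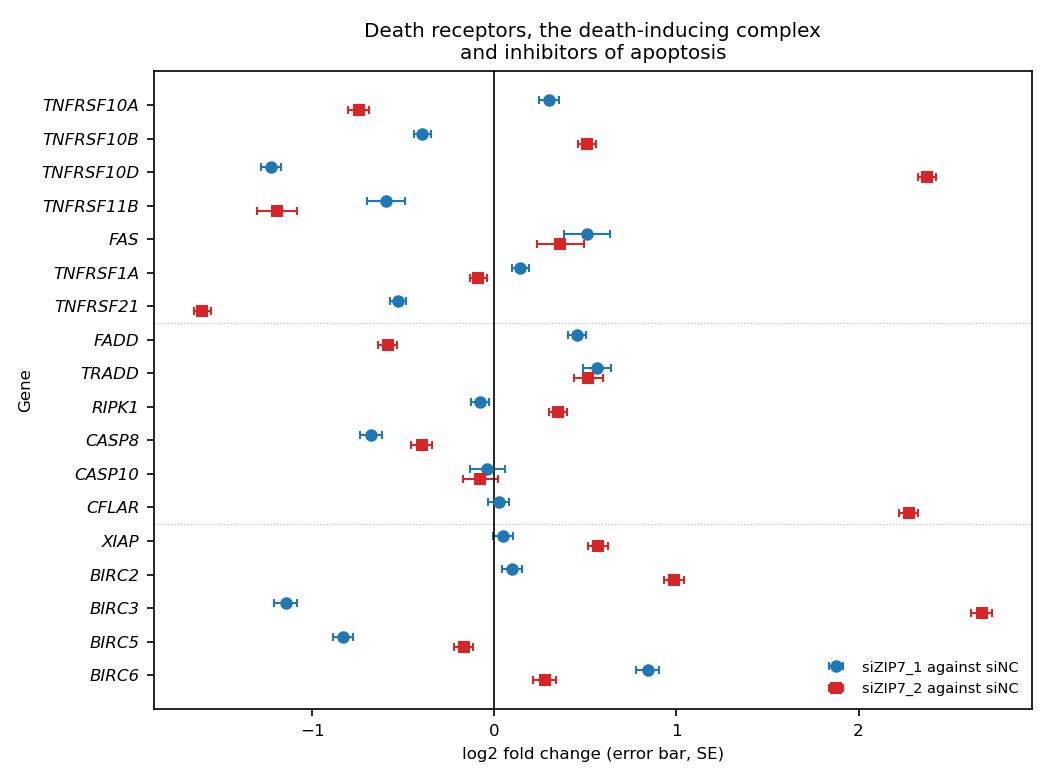
Log2 fold changes of death receptors (top), genes of the death-inducing complex (middle) and inhibitors of apoptosis (bottom) against siNC, with error bars for the SE of edgeR's fit, for siZIP7_1 as circles and siZIP7_2 as squares. Tested genes whose mean reached 1 CPM in each group are drawn, which leaves out TNF, TNFSF10, TNFRSF10C, TNFRSF25 and BIRC7. Of the genes drawn, TNFRSF10D, CFLAR and BIRC3 lie furthest right with siZIP7_2, at 2.38, 2.28 and 2.68, and TNFRSF21 furthest left at -1.60.

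A list of 10 genes stands for the CHOP arm of the ER stress response, although it includes ERN1, which encodes IRE1, a sensor outside that arm. Of these 10, 6 were higher and 4 lower with siZIP7_1 (all genes, 34.8% and 35.9%). With siZIP7_2, 8 were higher and 2 lower (all genes, 38.5% and 39.3%). All 10 passed the test in each comparison, where 70.7% and 77.8% of all genes did, and their median log2 fold changes were 0.34 and 0.56. ATF3, a stress-induced partner of CHOP, had means of 15.0, 25.8 and 42.3 CPM with siNC, siZIP7_1 and siZIP7_2, so that it rose with both siRNAs, by 0.78 (SE 0.066, edgeR adjusted p = 1.26e-11) and 1.49 (SE 0.064, edgeR adjusted p = 1.63e-18). EIF2AK3, the gene of PERK, also rose with both, with means of 19.9, 47.7 and 37.8 CPM. ATF4 was lower with both, with means of 294, 255 and 186 CPM and log2 fold changes of -0.21 (SE 0.046, edgeR adjusted p = 2.46e-04) and -0.66 (SE 0.047, edgeR adjusted p = 1.96e-13), and its protein is known to be controlled largely by translation. Among 11 transcription factors known to act on the genes described here, 1 was higher and 6 lower with siZIP7_1 (all genes, 34.8% and 35.9%), and 3 were higher and 4 lower with siZIP7_2 (all genes, 38.5% and 39.3%). TP73 was lower with both, with means of 6.01, 3.22 and 2.73 CPM, and FOXO1, known to activate BCL2L11 and BBC3, was higher with both, with means of 6.52, 10.8 and 8.83 CPM. FOXO3 of the same list, named after its values were seen, had means of 35.8, 34.7 and 37.8 CPM. It did not differ from siNC with either siRNA (edgeR adjusted p = 0.515 and 0.257). Whether these factors act on BCL2L11 or BBC3 in these cells was not tested.

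The genes whose log2 CPM followed that of TNFRSF10B most closely over the 9 libraries, among 13736 genes whose mean reached 1 CPM, were ME1 (Pearson r = 0.998), BMP1 (0.997), CST4 (0.997), HTRA1 (0.997) and DDR1 (0.996). The libraries form 3 groups, so r mainly reflects the 3 group levels, and no p-value is given. None of these genes belongs to the apoptosis lists. All had siNC between the siZIP7 groups, as TNFRSF10B did, an order that follows from choosing them by r. ME1, malic enzyme, for example averaged 33.0 CPM in siNC, 15.5 CPM in siZIP7_1 and 78.1 CPM in siZIP7_2.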

How the data were processed

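Single-read RNA-seq was run on an Illumina HiSeq system. Per library, the authors deposited a raw read count for every Ensembl gene identifier. The submitters' processing notes name Trim Galore 0.4.1, FastQC 0.11.2, STAR, HTSeq 0.6.1 and DESeq2 1.16.1, and the genome build is not given in the sources used here. The counting program's summary lines were left out. Symbols, positions and exonic lengths came from GENCODE 29 (GRCh38), which held 58275 of 58395 identifiers.

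The analysis used edgeR 4.0.16 in R 4.3.3 (TMM, low-count filter, quasi-likelihood test, Benjamini-Hochberg threshold 0.05), in 1 fit of 9 libraries with 6 residual degrees of freedom, and glmTreat against a 1.8-fold change. The biological coefficient of variation was 4.50%. The SE is the size of the log2 fold change divided by the square root of F. A floor of 3 counts was 0.0941 to 0.129 CPM and covers counting error only. The steps were tested on simulated data. Alternatives were DESeq2 1.42.0, other scalings and low-count filters, the replicate number as a block, fits to the compared pair of groups and each library left out in turn.

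The genes and lists were chosen with earlier results of these data known. Named are the 10 genes, SLC39A7, DDIT3, all genes of 4 lists (prosurvival, pore-forming, BH3-only, and death receptors with decoys and ligands), from each other list up to 2 genes in each direction with the largest mean change among those that passed in 1 direction with both siRNAs, the 5 genes most like TNFRSF10B, and genes said to be chosen later. A gene that this rule names is not reported here.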

Additional observations from a re-analysis of the deposited data

Results flagged for a closer look

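For 9 of the 10 genes the effects of the siRNAs differed, as edgeR's comparison of the siZIP7 groups showed. The log2 difference was -0.92 for BCL2L1, 0.30 for BCL2L2, 1.00 for MCL1, -1.98 for BAX and -0.55 for BAK1. It was 1.65 for BID, 0.41 for BBC3, 1.50 for PMAIP1 and 0.90 for TNFRSF10B. Each passed that test, as 78.7% of all genes tested did. In each, the 3 libraries of one siZIP7 group did not overlap those of the other. The share of all genes without overlap was not counted, so this lack of overlap adds nothing to the test. The siZIP7 groups differ in the siRNA and also in the remaining level of SLC39A7, which was 10.9% of siNC with siZIP7_1 and 5.84% with siZIP7_2, and the 2 cannot be told apart in this design.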

How the results depend on the processing

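The log2 fold changes of the 10 genes kept their direction and their side of the threshold in all 70 values of 7 alternatives, the 1.8-fold test aside, for siZIP7_1 against siNC, in 68 of 70 for siZIP7_2 against siNC and in all 70 between the siZIP7 groups. With each library left out in turn they did so in 90 of 90, 88 of 90 and 90 of 90 values. The exceptions were all BAK1 with siZIP7_2 against siNC, a value near 0, which was 0.13 with upper-quartile scaling and past the threshold (edgeR adjusted p = 0.0337), -0.032 without the low-count filter, -0.0074 without siNC replicate 3 and -0.0011 without siZIP7_2 replicate 3, and ranged from -0.0074 to 0.055 with each library left out. Upper-quartile scaling moved the median of all genes by 0.106 on the log2 scale for siZIP7_2 against siNC, and relative to that shift BAK1 did not move.

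The test against a 1.8-fold change cut the number of genes called from 11851, 13038 and 13187 to 2836, 4134 and 4725, because it asks for larger changes. The log2 fold changes that no longer passed were, with siZIP7_1 against siNC, 0.38 for BCL2L1, -0.25 for MCL1, 0.57 for BAK1, 0.52 for BCL2L11, 0.90 for BBC3, -0.73 for PMAIP1 and -0.39 for TNFRSF10B. With siZIP7_2 against siNC they were -0.54 for BCL2L1, 0.32 for BCL2L2, 0.75 for MCL1, 0.62 for BID, 0.41 for BCL2L11, 0.77 for PMAIP1 and 0.51 for TNFRSF10B. Between the siZIP7 groups they were -0.92 for BCL2L1, 0.30 for BCL2L2, -0.55 for BAK1, 0.41 for BBC3 and 0.90 for TNFRSF10B.

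Without division by exonic length the share of BCL2L1 was 45.9, 56.4 and 26.3% with siNC, siZIP7_1 and siZIP7_2, that of BCL2L2 5.15, 4.91 and 5.35% and that of MCL1 48.9, 38.7 and 68.3%, so MCL1 then exceeded BCL2L1 in siNC as well.

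Libraries with the same number showed no sign of pairing (mean correlation 0.0115, from -0.0493 to 0.0754, against -0.00579 for other numbers). Such correlations over 3 libraries a group cannot exclude pairing. With a replicate block added to the fit, 11927, 13080 and 13242 genes were called and no call among the 10 genes changed. Depth limits BCL2A1, BIK, HRK, BCL2L10, FASLG and TNF, which had few reads in some groups. With 3 libraries a group the p-values rest on a spread that edgeR pools over genes.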

Other observations

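Of the 7 other BCL2-related genes tested, none was higher and 2 were lower with siZIP7_1 (all genes, 34.8% and 35.9%), and 3 were higher and 4 lower with siZIP7_2 (all genes, 38.5% and 39.3%). Their median log2 fold changes were 0.06 and -0.20, beside -0.0069 and -0.0018 over all genes. BCL2L13, a mitochondrial BCL2-like protein, was lower with both siRNAs, with means of 63.1 CPM in siNC, 50.3 CPM in siZIP7_1 and 47.6 CPM in siZIP7_2. BCL2L14 had at most 0.0314 CPM in any library.

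Of 11 genes of the apoptosome and the caspases, 4 were higher and 4 lower with siZIP7_1 (all genes, 34.8% and 35.9%), and 5 were higher and 5 lower with siZIP7_2 (all genes, 38.5% and 39.3%), with median log2 fold changes of 0.08 and -0.05. CASP9, the initiator caspase of the mitochondrial route, was higher with both siRNAs, with means of 11.8, 25.1 and 16.1 CPM in siNC, siZIP7_1 and siZIP7_2. DIABLO, whose protein leaves mitochondria with cytochrome c, had means of 5.28, 7.95 and 7.99 CPM, and its counts are uncertain because an overlapping identifier carries the same symbol. CASP6 was lower with both, with means of 19.8, 15.7 and 7.16 CPM, and so was CASP2, with means of 34.1, 27.6 and 21.8 CPM. Of 6 genes known to control the turnover of MCL1 protein, 2 were higher and 2 lower with siZIP7_1 (all genes, 34.8% and 35.9%), and 2 were higher and 4 lower with siZIP7_2 (all genes, 38.5% and 39.3%), with median log2 fold changes of 0.02 and -0.32. The deubiquitinase USP9X had means of 147, 222 and 204 CPM and the ubiquitin ligase subunit FBXW7 48.8, 64.2 and 56.4 CPM, both higher with each siRNA. The deubiquitinase USP13 had means of 70.4, 35.0 and 25.4 CPM and FBXO4 6.78, 5.09 and 4.97 CPM, both lower with each siRNA.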
